A study of Mus musculus with 10 samples.

Results

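The genes described here are the cytosolic ribosomal protein genes read on microarrays of mouse heart. A gene was a member if its symbol in the platform annotation starts with Rpl or Rps followed by a digit, or by p or a and a digit. Rps6k kinases and pseudogenes were left out, and each gene was represented by the probe set of highest mean signal among its probe sets with 1 symbol. This gave 49 genes of the 18193 with such a probe set, 26 with an Rpl symbol (large subunit) and 23 with an Rps symbol (small subunit). A probe set is a group of short probes on the array that reads 1 transcript or several similar ones. The rule used names only and no difference between groups. It also took Rps19bp1, which encodes a binding partner of Rps19 and not a ribosomal protein, and it missed Rpsa and Fau, ribosomal proteins under another symbol. Rps19bp1 stays in the 49 and in the 23 wherever ribosomal protein or small subunit genes are counted.

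The hearts came from littermate male SV129 mice aged 32 weeks, either wild type (WT) or PKCz -/- (KO, lacking the atypical protein kinase C zeta; the labels name no restriction of the deletion to a cell type). Angiotensin II (AngII), a vasoconstrictor peptide used to induce enlargement of the heart, was infused for 14 days from implanted minipumps at a daily 432 µg per kg, and controls received the solvent PBS. There are 10 arrays, 2 of WT PBS, 3 of WT AngII, 3 of KO PBS and 2 of KO AngII, each named by its group and the number in its title. The titles and the design text say PBS where the source label of the controls says untreated. The study's title places the kinase in a route from the G protein alpha-q to ERK5 in cardiac hypertrophy, the growth of heart muscle under load. Nothing in the labels says whether arrays of 1 group are separate animals, so the spread behind the p-values is that between these samples and may be technical. In RNA of heart tissue, fewer cells of a type and less RNA per cell cannot be told apart.

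The ribosome translates mRNA into protein, and each of its 2 subunits is built from ribosomal RNA and a fixed set of proteins assembled in the nucleolus. Their mRNAs are among the most abundant of most cells and carry a terminal oligopyrimidine (TOP) start, a C followed by a run of C and T, through which mTOR and the RNA-binding protein LARP1 set their translation. Enlargement of heart muscle cells is known to go with more ribosome production, which can be raised by translating these mRNAs more without changing their amount. Arrays of this kind read mRNA amount only.

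Of the sequence of these genes, only the region around the start of transcription was read. RefSeq promoter windows of build GRCm38.p6, 250 bases before to 50 after the start, matched 43 of the 49 members by symbol and gave 51 starts. A run of at least 7 C or T on the gene's strand within 20 bases of the start was present at 54.9% of these starts, against 24.3% of all 32851 starts in the table. The letters CTTTC in the same place were at 23.5% against 5.49%. Over the 300 bases and both strands, CCGGAAG, the site read by ETS factors such as GABP, was at 39.2% against 8.86%, AAGATGG (YY1) at 15.7% against 6.34%, GGGCGG (SP1) at 52.9% against 35.7%, and CACGTG (the E-box bound by Myc) at 9.8% against 7.15%. TATAAA on the gene's strand in the 50 bases before the start was at 1.96% against 2.63%. A run of C and T can hold CTTTC, and the last 3 letters of CCGGAAG are the first 3 of AAGATGG, so 1 stretch can count for both and these shares are not separate. A match is a description of letters, not a site, and a run counted here need not begin at the start. The stretches below run 5′ to 3′ on the gene's strand from 60 bases before to 20 after the start, with the longest C and T run near the start in capitals where it has at least 7 bases. Rpl7a, Rpl35, Rpl38 and Rps18 are examples of core members with such a run. Rps25, Rpl7l1 and Rpl3l are the members with the largest differences with AngII in WT described further on. A run of that length was at a start of 27 of the 43 matched members. Core members such as Rpl37a, Rps3 and Rps2 had none, while the paralogs Rpl22l1, Rpl39l and Rps27l (not at every start) did have it.
Rpl7a, chr2:26910747-26910826, plus strand: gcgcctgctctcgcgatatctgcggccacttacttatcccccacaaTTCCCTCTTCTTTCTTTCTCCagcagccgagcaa
Rpl35, chr2:39005112-39005191, minus strand: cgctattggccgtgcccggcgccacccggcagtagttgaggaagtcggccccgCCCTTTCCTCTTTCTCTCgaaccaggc
Rpl38, chr11:114668520-114668599, plus strand: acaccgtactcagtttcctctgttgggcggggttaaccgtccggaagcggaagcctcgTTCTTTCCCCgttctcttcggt
Rps18, chr17:33955646-33955725, minus strand: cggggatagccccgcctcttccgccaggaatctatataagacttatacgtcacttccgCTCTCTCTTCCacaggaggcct
Rps25, chr9:44407654-44407733, plus strand: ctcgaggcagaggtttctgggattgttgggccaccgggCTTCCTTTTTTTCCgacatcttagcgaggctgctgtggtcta
Rpl7l1, chr17:46782637-46782716, minus strand: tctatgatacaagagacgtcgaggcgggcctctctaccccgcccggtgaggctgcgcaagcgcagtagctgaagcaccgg
Rpl3l, chr17:24727766-24727845, plus strand: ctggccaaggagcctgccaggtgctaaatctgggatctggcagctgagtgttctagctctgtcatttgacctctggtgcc
The longest C and T run was 21 bases for Rpl7a, 18 for Rpl35, 14 for Rps25 (part of it farther than 20 bases from the start), 11 for Rps18 and 10 for Rpl38, but 3 for Rpl7l1 and 5 for Rpl3l at this start. A second start of Rpl3l on the same chromosome had a longest run of 4.

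All signals are log2 values, so a difference of 1 is 2-fold. The mean signal of a member over the 10 arrays lay between 4.54 (Rps16) and 13.78 (Rps29), with a median of 12.42 over the 49. It was above 11 for 34 members, and the brightest probe set of each array read 14.54 to 14.68, so those members were read in the upper part of the scale. Another 10 members read under 8, among them Rps6, Rps25, Rps27, Rpl12 and Rps16. Of these, 4 read below the median level of all probe sets: Rps16, Rpl12, Rpl39l and Rpl14. Whether such dim probe sets read the main transcript of their gene was not tested. Differences given for these members further on are those of the dim signal. The level of a probe set depends on its probes, so levels of different genes are not compared here. A further 31 symbols of the family are only on probe sets that the annotation ties to several genes, among them Rpl3, Rpl5, Rpl10, Rpl32, Rplp1 and Rps12. Those genes are not members, and the 110 probe sets of that kind are given as a group at the end of the comparisons.

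The targeted gene and the array controls were read first. The transcript of PKCz itself, Prkcz, read 6.23 to 6.45 on the WT arrays and 5.70 to 5.87 on the KO arrays, with a mean difference of -0.53 and an exact two-sided permutation p of 0.01 over 100 arrangements within treatment, the smallest this design allows. Nppa, the natriuretic peptide gene that rises in a loaded heart, read 13.51 and 13.60 in WT PBS against 13.90 to 14.48 in WT AngII, and 13.07 to 13.37 in KO PBS against 13.95 and 14.05 in KO AngII. Nppb, the other natriuretic peptide gene known to respond to load, read lower with AngII in WT, 13.84 and 13.49 against 13.12, 12.77 and 13.14, and 13.09, 12.07 and 11.34 against 13.02 and 12.61 in KO. Bacterial RNAs spiked into the samples (24 probe sets) read 6.90 to 7.08 on 3 arrays, both of KO AngII and the array KO PBS 4, and 12.86 to 13.33 on the remaining 7; they are called the low and high spike-in arrays. The beta-actin 3' minus 5' signal, a sign of RNA and labelling quality, was 0.74 to 0.83 on the former and 0.92 to 1.70 on the latter. It was largest on WT PBS 5, and the 18S ribosomal RNA controls read 9.39 on WT PBS 3 against 6.65 to 8.18 on the others. No WT array is low and no KO AngII array is high, so the main values that use KO AngII are given also with this batch as a block, a fit whose batch term rests on 1 low and 2 high KO PBS arrays. That block kept the sign of the difference for 30 of 49 members for AngII in KO, 41 for KO minus WT under PBS, 29 for KO minus WT under AngII and 35 for the interaction. WT AngII 2 stood apart in its tissue markers: the 8 fibroblast markers deviated by 2.27 on average from their mean over the arrays, against -0.76 to 0.54 on the others. The 8 macrophage markers deviated there by 0.99 and the 6 smooth muscle markers by 0.86, while the 10 cardiomyocyte markers, which read 14.03 to 14.19 on average over all arrays, deviated by -0.11. Each fit was repeated without this array for the members of smallest p and Rpl3l, and where that turned a value or moved it by over 1.5 times the value without it is given too.

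The range of a ribosomal protein mRNA signal over the 10 arrays is given by level. Its median over the members was 0.38, against 0.55 over all probe sets. For the 34 members with a mean above 11 it was 0.35, against 0.47 for all probe sets above 11, and for the other members it was 0.61, against 0.55. Levels above 11 were not matched, since 25 of the 49 members lay in the top 1% of probe sets by mean signal. The part of level in these ranges was not tested. The range was under 0.5 for 33 members, between 0.5 and 1 for 14, and above 1 for Rpl3l (1.46) and Rps4l (1.31). Rps2, which lines the mRNA entry of the small subunit, ranged by 0.15, and Rps29 by 0.17, while Rps6 and Rpl12 ranged by 0.96. The median signal over the 49 members was 12.32 ± 0.05 in WT PBS (SD, n = 2), 12.35 ± 0.16 in WT AngII (SD, n = 3), 12.40 ± 0.06 in KO PBS (SD, n = 3) and 12.41 ± 0.03 in KO AngII (SD, n = 2). The group means lay closer together than the arrays of WT AngII, which read 12.52, 12.23 and 12.30.

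**Figure D1:**
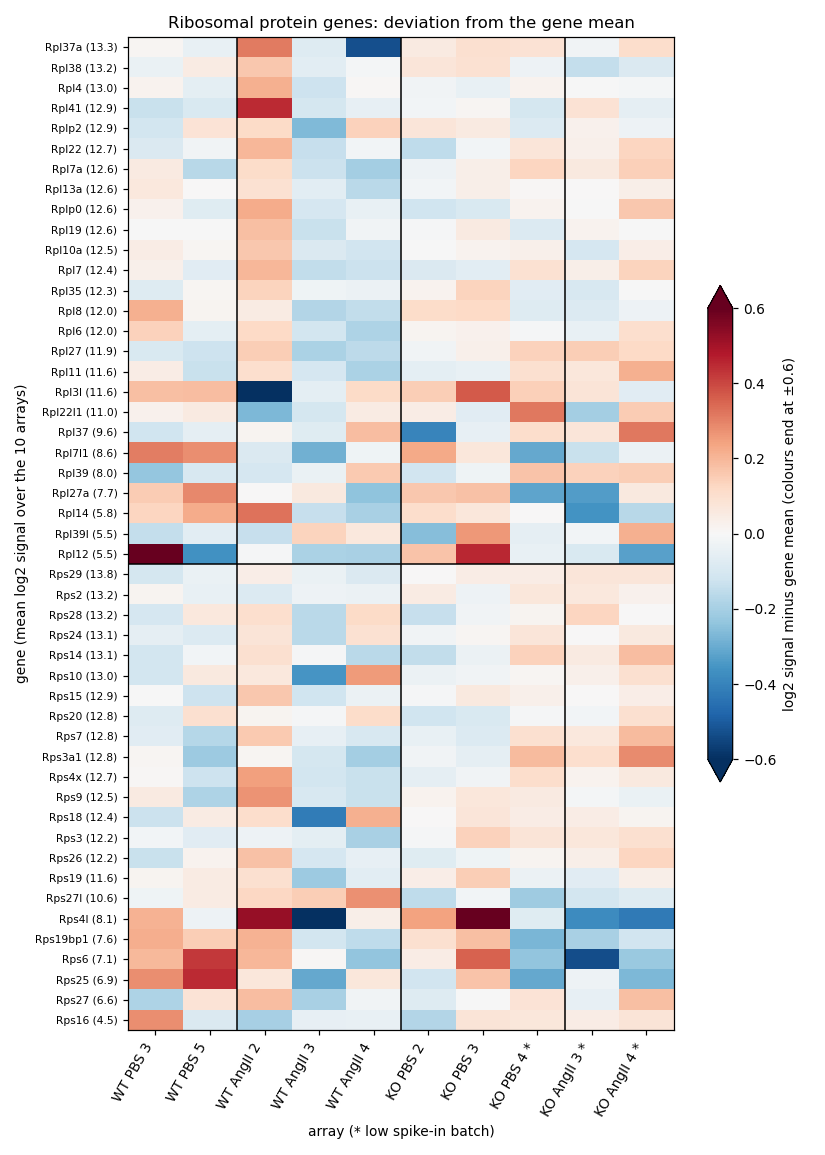
Heat map of the 49 ribosomal protein genes (rows, with the mean log2 signal of each; large subunit above the line, small subunit below) on the 10 arrays (columns, by group; * marks low spike-in arrays). Colour is the log2 signal minus the gene's mean, ending at ±0.6; most cells are pale, WT AngII 2 is mostly red and WT AngII 3 mostly blue, and Rpl3l, Rps4l, Rps6, Rps25 and Rpl12 hold the strongest colours.

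The arrays of WT AngII differed among themselves over the whole family. The median deviation of the 49 members from their means was 0.11 on WT AngII 2, -0.10 on WT AngII 3 and -0.05 on WT AngII 4, and between -0.02 and 0.06 on the other 7 arrays. WT AngII 2 was the highest array for 17 members (34.7%, against 16.8% of all probe sets), and WT AngII 3 was the lowest for 14 (28.6%, against 7.96%). Large and small subunit genes deviated alike there, by 0.12 and 0.10 on WT AngII 2 and by -0.10 and -0.10 on WT AngII 3. Single members stood out on 1 array. Rpl41, the smallest ribosomal protein, read 13.40 on WT AngII 2 and 12.82 to 13.04 on the other 9. Rpl37a, a zinc-binding protein of the large subunit, read 12.76 on WT AngII 4 against 13.20 to 13.59 elsewhere. On WT AngII 3, Rps18 read 0.39 below its group mean and lower than the 12.29 to 12.63 of the other 9 arrays, and Rps10 read 12.67 against 12.91 to 13.28. The part of the tissue markers of WT AngII 2 in these values was not tested.

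In WT hearts the family's differences with AngII centred on 0. The median difference of AngII minus PBS over the 49 members was 0.01, with 27 above 0 (55.1%) and 22 below, against a median of 0.01 and 51.6% above 0 over all probe sets. A call is an adjusted p under 0.05 (limma with Benjamini-Hochberg adjustment over all 45037 probe sets), and no member was called, where 0.0% of all probe sets were. At an unadjusted p under 0.05, 2 members were lower (3.52% of all probe sets) and 0 higher (1.71%), shares near the background. The smallest adjusted p of a member was 0.93. Standard errors ran from 0.07 to 0.30 with a median of 0.12, and for 38 of 49 members the 95% interval lay within 0.5 of 0, which bounds the difference in signal at 1.41-fold in either direction. Without WT AngII 2 the median was -0.06.

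The 5 members of smallest p all had lower means with AngII. Rpl7l1, a paralog of Rpl7 found in large subunit precursors, read 8.89 and 8.86 in WT PBS and 8.50, 8.29 and 8.56 in WT AngII. The groups did not overlap, and the difference was -0.43 ± 0.17 (SE; unadjusted p = 0.0306, limma adjusted p = 0.93). Its other probe sets gave -0.41 and -0.17. Rps25, a protein of the small subunit head that some viral and cellular mRNAs need for internal initiation, read 7.22 and 7.39 in WT PBS and 7.01, 6.63 and 7.01 in WT AngII. The groups again did not overlap, and the difference was -0.42 ± 0.18 (unadjusted p = 0.0413, limma adjusted p = 0.93). Neither passed the adjusted test.

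Rpl3l, the paralog of Rpl3 that is made in striated muscle, read 11.74 and 11.74 in WT PBS and 10.47, 11.50 and 11.67 in WT AngII. All 3 AngII arrays were below both PBS arrays, but WT AngII 2 alone was far below. The difference was -0.53 ± 0.27, a ratio of 1.44-fold, with a 95% interval from -1.12 to 0.06 (limma adjusted p = 0.93), and -0.15 without WT AngII 2, the array with high fibroblast markers. Rpl8, which sits near the peptidyl transferase centre, gave -0.21 ± 0.11, and Rps6, the substrate of S6 kinase, gave -0.32 ± 0.20. For Rpl8 and Rps6 the groups overlapped. Of the 49 members, 4 were lower without overlap between groups (11.3% of all probe sets were) and 1, Rps27l, was higher (8.4%).

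**Figure D2:**
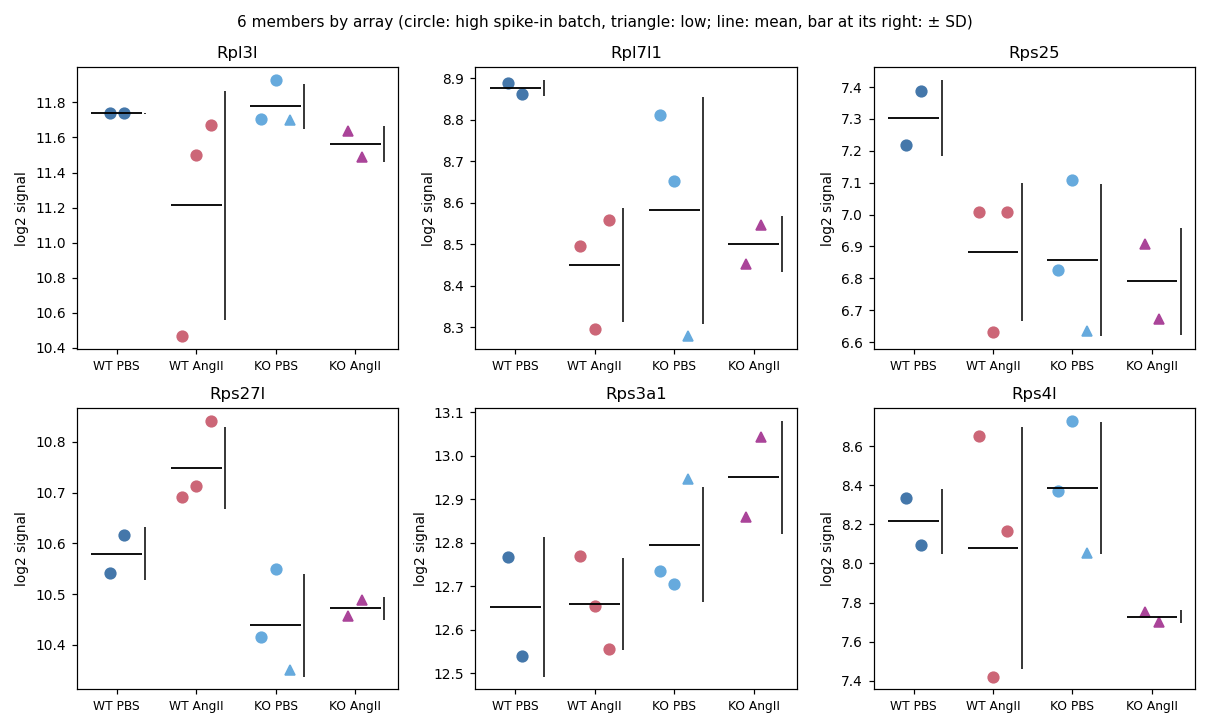
Log2 signal of Rpl3l, Rpl7l1, Rps25, Rps27l, Rps3a1 and Rps4l on each array, by group; circles are high and triangles low spike-in arrays, the line is the group mean and the bar beside it ± SD (n = 2 or 3). Vertical scales differ. WT AngII 2 at 10.47 sets the Rpl3l mean of WT AngII, and the WT PBS arrays of Rpl7l1 and Rps25 lie above all WT AngII arrays.

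In KO hearts the differences with AngII also centred near 0. The median difference of AngII minus PBS was 0.01 (0.00 with the batch as a block), with 29 members above 0 (59.2%, against 53.8% of all probe sets) and a median of 0.02 over all probe sets. With the block 26 members were above 0. No member was called, where 0.0% of all probe sets were, and the smallest adjusted p was 0.892. At an unadjusted p under 0.05, 1 member was lower (2.4% of all probe sets) and 0 higher (2.17%). The 95% interval lay within 0.5 of 0 for 41 of 49 members, and for 34 with the block. Rps4l, a close copy of the X-linked small subunit gene Rps4x, read 8.37, 8.73 and 8.05 in KO PBS and 7.75 and 7.70 in KO AngII. Its groups did not overlap, with a difference of -0.66 ± 0.30 (unadjusted p = 0.0492, limma adjusted p = 0.892), and -0.33 with the batch as a block. In WT the same gene read 8.33 and 8.10 with PBS and 8.65, 7.42 and 8.16 with AngII, so WT AngII held both the highest of these 5 values and the lowest of all 10. Rps6 read 7.16, 7.47 and 6.88 in KO PBS and 6.58 and 6.89 in KO AngII, a difference of -0.43 ± 0.20 with 1 overlapping array, and -0.14 with the block. Rps4l has 1 probe set only.

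The other members of small p in KO were spread over both directions. Rpl14 gave -0.32 ± 0.16 (-0.26 with the block) and Rpl37 gave 0.31 ± 0.17 (0.09 with the block). Rpl38, which is needed for translation of Hox mRNAs in the embryo, gave -0.16 ± 0.09 (-0.09 with the block). Rpl3l read 11.71, 11.93 and 11.70 in KO PBS and 11.64 and 11.49 in KO AngII, so the groups did not overlap, with a difference of -0.21 ± 0.27 (-0.14 with the block). It was the 1 member whose AngII arrays lay below the PBS arrays without overlap in both genotypes, as 3.03% of all probe sets did, and no member lay above in both (1.87% of all). In KO alone 6 members were lower without overlap (10.8% of all probe sets) and 3 higher (13.7%).

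Between KO and WT hearts without AngII, differences were again small. The median difference of KO minus WT under PBS was 0.04, with 31 of 49 members above 0 (63.3%, against 53.5% of all), and the median over all probe sets was 0.01. With the batch as a block the members' median was 0.01 (0.00 over all probe sets) and 27 of 49 were above 0. No member was called, where 0.0133% of all probe sets were, and the smallest adjusted p was 0.758. At an unadjusted p under 0.05, 1 member was lower (3.58% of all probe sets) and 0 higher (2.72%). That member was Rps25, which read 6.83, 7.11 and 6.64 in KO PBS, below both WT PBS arrays. Its difference was -0.45 ± 0.18 (unadjusted p = 0.0321, limma adjusted p = 0.758), or -0.33 with the batch as a block. WT PBS is the comparison group both here and for AngII in WT, so the similar values of Rps25 are not independent. Rpl7l1, with 8.81, 8.65 and 8.28 in KO PBS, gave -0.29 ± 0.17 here, and -0.14 with the block. Rpl27 gave 0.16 ± 0.12 and Rps29 0.10 ± 0.07. For 40 of 49 members the interval lay within 0.5 of 0. Of the members, 5 were higher without overlap (13.2% of all probe sets) and 3 lower (10.8%).

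Under AngII, KO and WT hearts differed by a median of 0.05 over the members, with 34 above 0 (69.4%). The same figures over all probe sets were 0.03 and 57.5%, and the members' median was 0.04 with the batch as a block and 0.09 without WT AngII 2. With the block 30 members were above 0, and the median over all probe sets was 0.01. No member was called, where 0.0111% of all probe sets were, nor with the block, where 0.00444% were, and the smallest adjusted p was 0.734. At an unadjusted p under 0.05, 1 member was higher (3.22% of all probe sets) and 1 lower (3.28%). Rps3a1, a protein of the small subunit, read 12.77, 12.65 and 12.56 in WT AngII and 12.86 and 13.04 in KO AngII. The groups did not overlap, with a difference of 0.29 ± 0.11 (unadjusted p = 0.0263, limma adjusted p = 0.734), and 0.06 with the batch as a block. The low array KO PBS 4 read 12.95, above KO PBS 2 and 3 at 12.74 and 12.70, so Rps3a1 was higher on all 3 low arrays than on all 7 high ones.

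Rps27l, a paralog of Rps27 that p53 induces, read 10.69, 10.71 and 10.84 in WT AngII and 10.46 and 10.49 in KO AngII. The difference was -0.28 ± 0.12 (unadjusted p = 0.0409, limma adjusted p = 0.734) and -0.14 with the block, and its other probe sets gave -0.31 and -0.24. In PBS hearts it read 10.54 and 10.62 in WT and 10.42, 10.55 and 10.35 in KO, so WT AngII held the 3 highest of the 10 arrays. Rps3 gave 0.18 ± 0.10 on its brightest probe set (0.16 with the block), but -0.32 and 0.30 on its dimmer ones. Rpl27 gave 0.20 ± 0.12 (0.31 without WT AngII 2) and Rps6 -0.37 ± 0.20, which became 0.07 for both with the block. Rpl3l gave 0.35 ± 0.27, or 0.47 with the block and -0.02 without WT AngII 2. Without overlap between groups, 5 members were higher (16.0% of all probe sets) and 2 lower (11.2%).

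This comparison depended on how much each array counted. With limma's array weights, which gave WT AngII 4 a weight of 7.20 and WT AngII 2 one of 0.22, 8 members were called between KO and WT under AngII, as were 6.46% of all probe sets. Rps3a1, Rpl37a, Rpl27, Rps3, Rpl7a, Rpl11 and Rps14 were higher and Rps27l was lower in KO, with Rpl37a at 0.51 ± 0.11 (limma adjusted p = 0.0213). Rpl37a read 12.76 on the heavily weighted WT AngII 4 and 13.59 and 13.20 on the other WT AngII arrays, and with equal weights none of the 8 was called.

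No member passed the test of the interaction, which asks whether the AngII effect differs between genotypes, and 0.0% of all probe sets did. The smallest adjusted p of a member rounded to 1, no member had an unadjusted p under 0.05 (1.15% of all probe sets were higher and 0.482% lower at that p), and standard errors had a median of 0.17. The median interaction, the KO effect minus the WT effect, was 0.04, 0.00 with the batch as a block and 0.10 without WT AngII 2. Of the members 61.2% were above 0, against 52.3% of all probe sets, and with the block 24 of 49 were. The interval lay within 0.5 of 0 for 27 of 49 members, and for 23 with the block, so unequal effects of that size were not bounded for the rest. With the block 1 member had an unadjusted p under 0.05 (1.55% of all probe sets did). It was Rpl7l1, at 0.65 ± 0.24 with the block (unadjusted p = 0.0227, limma adjusted p = 1) and 0.35 ± 0.25 without it. Rps25 gave 0.35 ± 0.26, or 0.57 with the block. Rps4l gave -0.52 ± 0.42, or -0.19 with the block and -0.23 without WT AngII 2. Rps16, the member of lowest signal, gave 0.26 ± 0.18 (0.19 with the block), but 0.08 without WT PBS 3 and 0.45 without WT PBS 5. Rpl38 gave -0.18 ± 0.13, or -0.11 with the block and -0.11 without WT AngII 2. Rpl3l gave 0.31 ± 0.38, or 0.39 with the block and -0.06 without WT AngII 2.

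**Figure D3:**
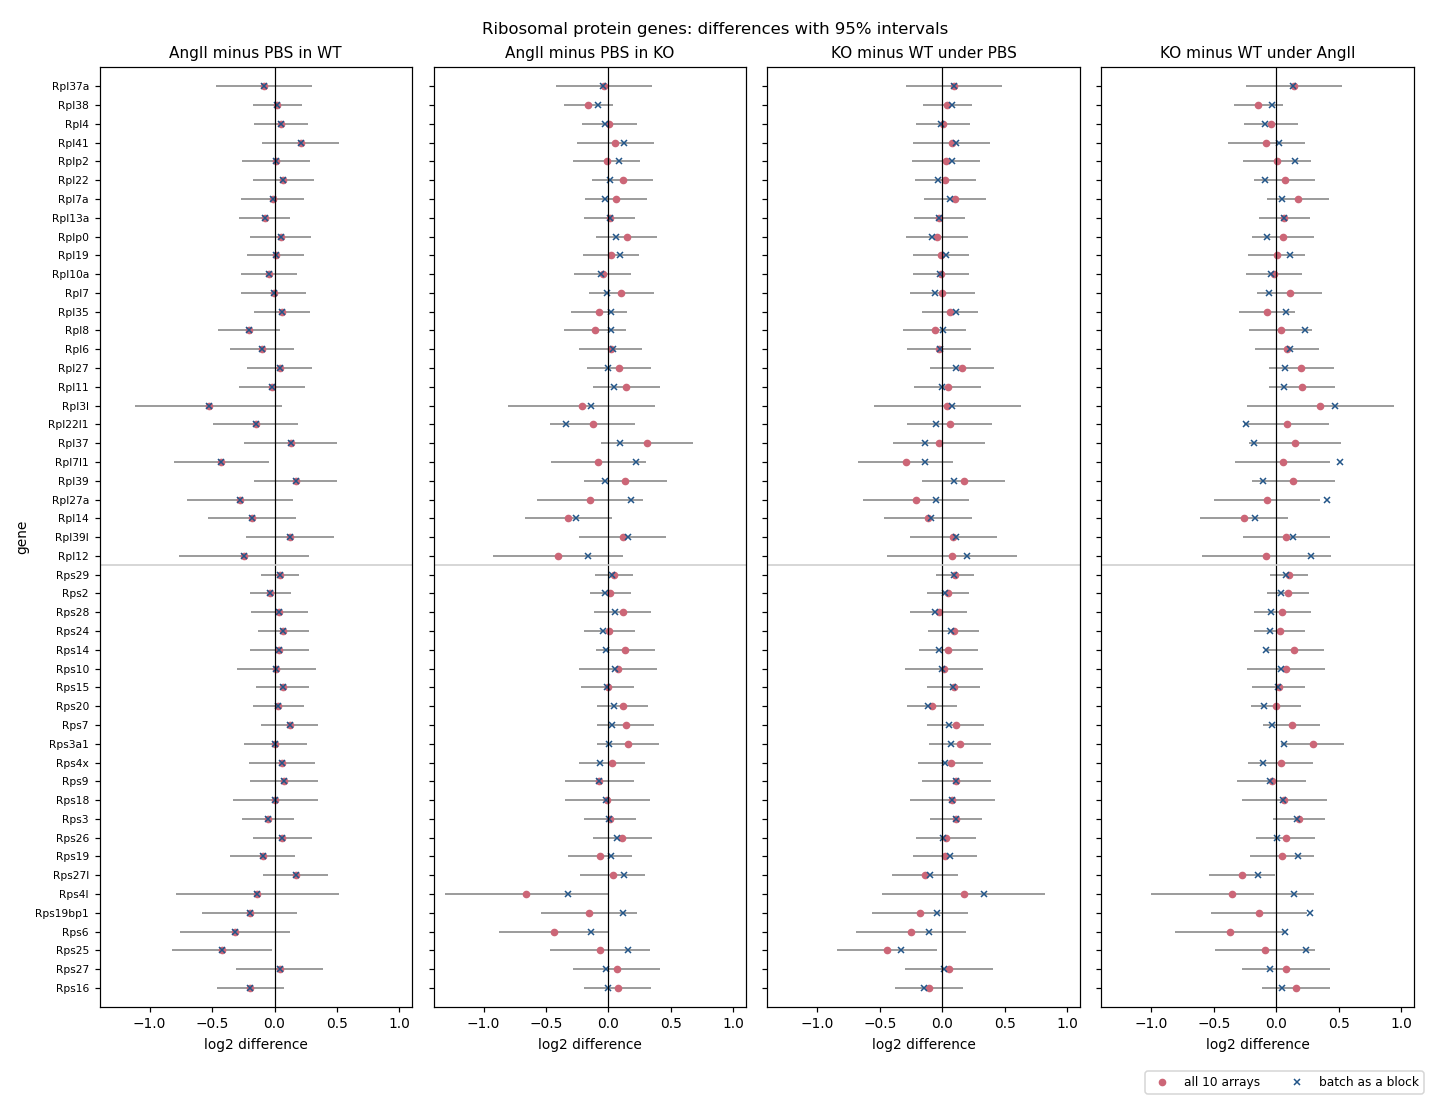
Log2 differences of the 49 ribosomal protein genes in 4 comparisons (large subunit above the grey line, small subunit below), as points from all 10 arrays with 95% intervals, and crosses from the fit with the spike-in batch as a block. Nearly all intervals span 0; the widest belong to Rps4l, Rpl3l, Rpl12 and Rps6, and crosses leave the points mainly in the comparisons with KO AngII.

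The subunits, the stalk and the paralogs were compared by role. Medians of the 26 large and 23 small subunit genes, the latter counting Rps19bp1, were -0.01 and 0.03 for AngII in WT and 0.01 and 0.03 for AngII in KO. They were 0.02 and 0.05 for KO minus WT under PBS, and 0.06 and 0.05 under AngII. The stalk proteins Rplp0 and Rplp2, which recruit elongation factors, gave 0.05 ± 0.11 and 0.01 ± 0.12 for AngII in WT and 0.15 ± 0.11 and -0.02 ± 0.12 in KO (0.06 and 0.08 with the block). The 6 paralogs Rpl3l, Rpl22l1, Rpl39l, Rpl7l1, Rps27l and Rps4l had medians of -0.14 for AngII in WT and -0.10 in KO, or -0.01 in KO with the batch as a block, with 2 of 6 above 0 in each genotype. Rpl22l1, the paralog of Rpl22, read 10.99 and 11.02 in WT PBS, 10.69, 10.86 and 11.01 in WT AngII, 11.01, 10.89 and 11.28 in KO PBS and 10.76 and 11.11 in KO AngII. Its groups overlapped in every comparison, and so did those of Rpl39l, a paralog of Rpl39 known from male germ cells, whose values ran from 5.26 to 5.78. For AngII in WT the paralogs gave -0.53 (Rpl3l), -0.43 (Rpl7l1), 0.17 (Rps27l), -0.15 (Rpl22l1), -0.14 (Rps4l) and 0.12 (Rpl39l). Core counterparts gave 0.07 ± 0.11 for Rpl22, 0.17 ± 0.15 for Rpl39, -0.01 ± 0.12 for Rpl7, 0.04 ± 0.16 for Rps27 and 0.06 ± 0.12 for Rps4x. Rpl3, the counterpart of Rpl3l, is not a member and has no value here. The difference between a paralog and its counterpart was not tested. In KO these counterparts gave 0.11, 0.13, 0.10, 0.07 and 0.03. With the batch as a block they gave 0.01, -0.03, -0.01, -0.02 and -0.07, so 4 of the 5 changed sign.

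Values for further members follow for AngII in WT and KO, with the block in brackets for KO. Rpl11, which binds Mdm2 and so stabilises p53 when ribosome assembly fails, gave -0.02 ± 0.12 for AngII in WT and 0.14 ± 0.12 in KO (0.05). Rpl13a, which can leave the ribosome to silence inflammatory mRNAs, gave -0.08 ± 0.09 and 0.01 ± 0.09 (0.01). Rps19, the gene most often mutated in Diamond-Blackfan anaemia, gave -0.10 ± 0.12 and -0.07 ± 0.12 (0.02). The gene of its binding partner, Rps19bp1, gave -0.20 ± 0.18 and -0.16 ± 0.18 (0.12). Rpl10a gave -0.04 ± 0.10 and -0.05 ± 0.10 (-0.06). Of the ribosomal proteins under another symbol, Rpsa gave -0.11 ± 0.11 for AngII in WT and -0.11 ± 0.11 in KO (0.07), and Fau gave 0.08 ± 0.17 and -0.22 ± 0.17 (0.12).

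Other probe sets of the family gave no calls either. The 49 members have 104 probe sets with 1 symbol, and none was called in any comparison. At an unadjusted p under 0.05, 3 were lower (3.52% of all probe sets) and 0 higher (1.71%) for AngII in WT. For AngII in KO 1 was lower (2.4%), and for KO minus WT under PBS 3 were lower (3.58%). Under AngII 1 was higher (3.22%) and 2 lower (3.28%), and for the interaction 1 was higher (1.15%). Of the 23 members with several probe sets, those with differences of both signs numbered 16, 12, 13 and 9 in the first 4 of these comparisons. The 110 probe sets tied to several genes had medians of 0.01, 0.04, 0.02 and 0.07 in the same comparisons, or 0.01, -0.01, 0.01 and -0.01 with the batch as a block, and none was called.

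Differences between low and high spike-in arrays were larger in size than those for AngII in WT, but also less precise. Their size had a median of 0.13 over the members with a median SE of 0.16, against 0.07 and 0.12 for AngII in WT. Over all probe sets the median size was 0.15 for the batch and 0.11 for AngII in WT, above that of the members in both. The signed difference of low minus high arrays, taken with group in the fit, had a median of 0.01 over the members (0.02 over all probe sets), and none was called, where 0.0% of all probe sets were. At an unadjusted p under 0.05, 1 member was lower (2.56% of all probe sets) and 0 higher (3.2%). It was Rpl7l1, at -0.46 ± 0.20 (unadjusted p = 0.0409, limma adjusted p = 0.841). Rpl27a gave -0.49 ± 0.23, Rps6 -0.44 ± 0.25, and the non-ribosomal Rps19bp1 -0.41 ± 0.21, while Rpl37 gave 0.33 ± 0.21 and Rps3a1 0.23 ± 0.14. The 3 low arrays lay above all 7 high arrays for Rps3a1 and Rps29 (5.06% of all probe sets) and below them for no member (4.36%). Differences in KO AngII and this batch cannot be told apart except through KO PBS.

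Genes that build the ribosome were read beside the proteins in it, from lists drawn up by function. Of 45 ribosome biogenesis genes, which process ribosomal RNA and assemble subunits, 44 were measured, and for AngII in WT 3 of them were above 0 (51.6% of all probe sets were), with a median of -0.23. None was called, and 9 had an unadjusted p under 0.05, all lower, where 3.52% of all probe sets were lower at that p. Nop58, a core protein of the box C/D particles that guide methylation of ribosomal RNA, gave -1.37 ± 0.31 (limma adjusted p = 0.876), and Rrs1, needed for 5S particle assembly, gave -0.64 ± 0.15 (limma adjusted p = 0.877). The list's mean deviation was 0.29 and 0.11 on the WT PBS arrays, and 0.05, -0.13 and -0.09 on the WT AngII arrays. In KO the median was -0.13, and -0.01 with the batch as a block, and KO minus WT under PBS it was -0.16 (-0.13 with the block) with 6 lower at that p, where 3.58% of all probe sets were. Both that comparison and AngII in WT use the 2 WT PBS arrays.

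The 76 mitochondrial ribosomal protein genes, whose products form the separate ribosome of mitochondria, had a median of -0.20 for AngII in WT with 6 above 0, and of -0.11 in KO (-0.06 with the block). None was called. In WT 10 had an unadjusted p under 0.05, all lower (3.52% of all probe sets), with Mrps34 at -0.48 ± 0.15 and Mrpl45 at -0.39 ± 0.13 (limma adjusted p = 0.93 for both). Of 37 translation factors 32 were measured, with medians of -0.07 for AngII in WT and 0.00 in KO (-0.01 with the block) and none called. Among 18 measured regulators of ribosome synthesis none was called. Their medians were -0.09 for AngII in WT and -0.12 in KO (-0.02 with the block). For KO minus WT they were -0.12 under PBS (-0.09 with the block) and -0.21 under AngII (-0.01 with the block). Myc, a transcription factor that drives ribosomal genes, gave -0.37 ± 0.16 for AngII in WT and -0.52 ± 0.16 for KO minus WT under PBS (limma adjusted p = 0.651). Both Myc values use the 2 WT PBS arrays. Larp1 gave -0.25 ± 0.16 for AngII in WT and -0.34 ± 0.16 in KO, or -0.05 in KO with the block.

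**Figure D4:**
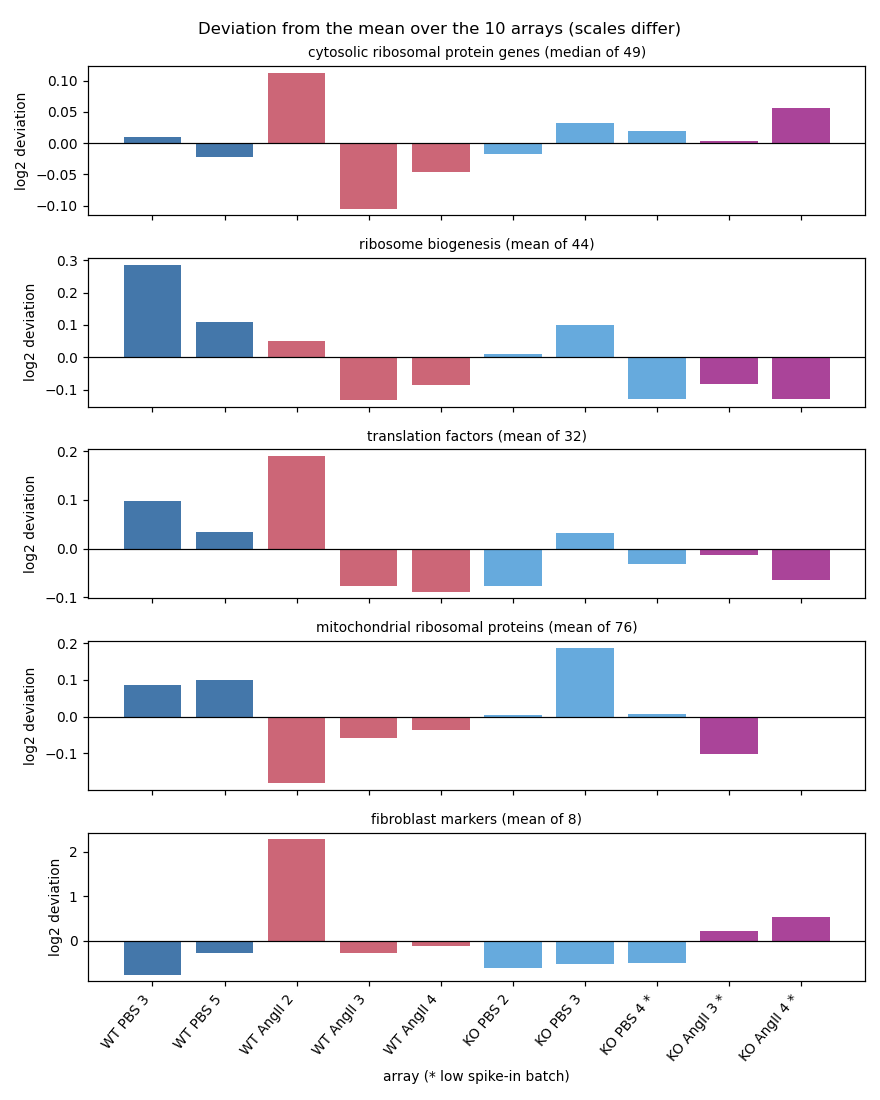
Deviation from the mean over the 10 arrays (log2; bars from 0, vertical scales differ) for the median of the 49 cytosolic ribosomal protein genes and the means of 44 ribosome biogenesis, 32 translation factor, 76 mitochondrial ribosomal protein and 8 fibroblast marker genes; * marks low spike-in arrays. The ribosomal protein bars stay between -0.10 and 0.11, while the fibroblast markers reach 2.27 on WT AngII 2.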

How the data were processed

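Total RNA of hearts was labelled from 6 µg per sample and read on 1-colour Affymetrix arrays, per the labels' protocols. For 45101 probe sets the authors deposited log2 values, and the submitters' processing notes name RMA, with its version and probe set definitions not given in the sources used here. RMA corrects background, equalises array distributions and summarises probes, which compresses small differences of dim probe sets and hides a shift shared by all genes. Control probe sets (64) were left out and 45037 tested. The annotation gave 1 symbol for 34945, several for 932 and none for 9160.

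The limma package 3.58.1 under R 4.3.3 fitted the 4 group means to all 10 arrays (eBayes with trend, two-sided moderated tests, Benjamini-Hochberg adjustment within each comparison). Errors are SE unless SD is stated. The number of arrays limits precision, and no read depth applies. On simulated arrays with 200 changed probe sets of 45037, the fit for AngII in WT recovered 79% of 2-fold and 95% of 4-fold changes with 10 false calls. For KO minus WT under AngII it recovered 59% and 97% with 5. The simulated noise was independent, normal and of equal spread on all arrays, with no batch. The real arrays had a batch and unequal spread, so these shares do not give the power of the real comparisons.

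The members, lists and comparisons were chosen with earlier results of these data known. Members with a structural or regulatory role, the 5 of smallest unadjusted p per comparison, the 3 of highest and lowest signal, and up to 3 with an array far from its group were named; of other lists, the 2 to 4 genes of smallest p. Members added to these for illustration were chosen after their values were seen. Alternatives were equal array medians, repeated quantile normalisation, a filter at the median signal, eBayes without trend, array weights, title number or spike-in batch as a block, high spike-in arrays only, only the groups compared, the mean or the unsuffixed probe set per gene, updated symbols, and leaving out each array; added after seeing the data were the 110 probe sets with several symbols and the batch block without WT AngII 2.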

Additional observations from a re-analysis of the deposited data

How the results depend on the processing

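No member was called in any comparison under the alternatives tried, except the 8 called between KO and WT under AngII with array weights. The median member difference moved by less than 1 SD of its replicate spread (0.07), except in the settings given here. That SD is larger than every main median, so a median could turn sign within it. With equal array medians it was -0.0291 for AngII in WT, -0.0299 in KO, -0.0116 for KO minus WT under PBS and -0.0018 under AngII. All probe sets then had medians of -0.03, -0.03, -0.04 and -0.02. The interaction median was -0.0220 with repeated quantile normalisation, and other settings turned some medians too. For AngII in WT it was -0.0625 without WT AngII 2, with and without the batch block, and for KO minus WT under AngII it was -0.0183 without WT AngII 3. Leaving out 1 array at a time gave -0.0625 to 0.0554 for AngII in WT and -0.0183 to 0.0982 for KO minus WT under AngII.

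Whether title numbers pair the arrays could not be decided. Deviations from the group means correlated with r from -0.36 to 0.10 over 10 same-numbered pairs. Over 27 pairs of other numbers r ran from -0.31 to 0.31. Such deviations cancel out within a group, so the WT PBS arrays mirror each other, as do those of KO AngII. These r values are therefore not separate and cannot exclude pairing. With the number as a replicate block the median was -0.0702 for AngII in WT and -0.0318 for KO minus WT under PBS, and 0 members were called.

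Among the members of smallest p and Rpl3l, followed through the settings, signs turned for 12 values, none called, and the cause was not tested. Over all 49 members the batch block alone turned more, and the number that kept their sign is given with the array controls. For Rpl3l, KO minus WT under PBS was -0.0116 with equal array medians and -0.0362 without KO PBS 3 (up to 0.0774 with another array left out). Under AngII it was -0.0621 with array weights and -0.0228 without WT AngII 2 (up to 0.5795 with another left out). Its interaction was -0.0729 with array weights, -0.1321 with the replicate block and -0.0610 without WT AngII 2 (up to 0.5413 with another left out). Rpl27 under PBS was -0.0645 as the mean of its probe sets. Rps3 under AngII was -0.3219 on the probe set without a suffix. Rps6 under AngII was 0.0685 with the batch block and 0.1728 without WT AngII 2 too. The Rps4l interaction was 0.0954 with the batch block and without WT AngII 2.

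Groups of 2 or 3 arrays limit what the test can call. A fit on high spike-in arrays only exists for AngII in WT and KO minus WT under PBS, the interaction has no smaller set of groups, and the filter removes 4 dim members. A left-out array can leave 1 in a group, which is then assumed to vary like the other groups.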
